A study of Cricetulus griseus with 6 samples.

Results

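The double-stranded RNA (dsRNA) sensors and adaptors of CHO-T cells were examined after transfection with negative control siRNA or *Xbp1* siRNA. The genes were chosen by symbol, as 9 genes of cytosolic dsRNA sensing; the rule uses no expression value, but the list was drawn up with earlier results of these data known. Of these, 8 were found among the 27873 entries of the files, each on 1 row, namely *Ddx58*, *Ifih1*, *Dhx58*, *Mavs*, *Eif2ak2*, *Prkra*, *Oasl* and *Adar*; the ninth is not reported here. CHO-T cells are a Chinese hamster ovary line infected with a retrovirus that carries mouse T-cadherin cDNA (*Cdh13*) and selected with puromycin. RNA was taken 48 h after transfection, with 3 libraries of control siRNA and 3 of *Xbp1* siRNA. The comparison asks what changed in the transcriptome when *Xbp1*, a transcription factor of the unfolded protein response, was silenced. Every library came from cells that carried the transgene and an introduced RNA duplex, so a response shared by both siRNAs does not appear as a difference, and untransfected cells were not analysed here. The study's methods speak of 1 siRNA sequence against *Xbp1*, so loss of *Xbp1* and effects of that sequence cannot be told apart. The study's methods speak of independent biological experiments for its results in general, while the labels do not say whether the libraries of a group came from separate cultures. The p-values measure the spread between these libraries, which may be technical if they did not.

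Cells detect dsRNA in the cytosol through several proteins. RIG-I (encoded by *Ddx58*) and MDA5 (*Ifih1*) are helicases that bind viral or synthetic dsRNA and signal through MAVS, an adaptor on mitochondria, to kinases that activate the transcription factors IRF3 and NF-kB. LGP2 (*Dhx58*) is a related helicase without the signalling domain, which modulates the other two. PKR (*Eif2ak2*) is a kinase that dsRNA activates and that then phosphorylates eIF2 alpha and slows translation, and PACT (*Prkra*) is a dsRNA-binding protein that activates PKR. ADAR1 (*Adar*) edits adenosine to inosine in dsRNA and so keeps the cell's own duplexes from being sensed. *Oasl* encodes a protein of the oligoadenylate synthetase family. Several of these genes are themselves interferon-induced, and poly(I:C), a synthetic dsRNA that the study used in other cells, is sensed by the same proteins.

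The members did not move as a group. *Eif2ak2* and *Oasl* were higher with *Xbp1* siRNA, to 210% and 177% of the control mean in FPKM (n = 3 libraries per group), while the RNA helicases *Ddx58* and *Ifih1*, the adaptor *Mavs*, the PKR activator *Prkra* and the editing enzyme *Adar* did not pass the test. In bulk RNA, a change in the number of cells that express a gene and a change in RNA per cell cannot be told apart. FPKM is the number of sequenced fragments of a gene scaled to its length and to the size of the library, so levels can be compared between genes. Fold changes are those of log2(FPKM + 0.1), which understates changes of weakly expressed genes, and p-values are from limma with Benjamini-Hochberg adjustment over the 14361 genes with a mean of at least 0.1 FPKM. *Dhx58* was under that minimum, which left 7 members tested. At an adjusted p under 0.05 (limma), 2 members were higher and 0 lower, while among all genes tested 20.2% were higher and 20.2% lower at that limit, and 40.4% in either direction. An unadjusted p under 0.05 was found for 3 members, the third being *Prkra*. A gene is termed called here when its log2 fold change was also at least 1 in size, the fold threshold of the study's methods. *Eif2ak2* was the single member called, against 2.69% of all genes called higher and 2.5% called lower. It was called in 8 of 15 alternative fits, and its adjusted p was under 0.05 in 11 of them (limma). The median log2 fold change of the members tested was −0.02, and that of all genes tested was 0.01.

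**Figure D1:**
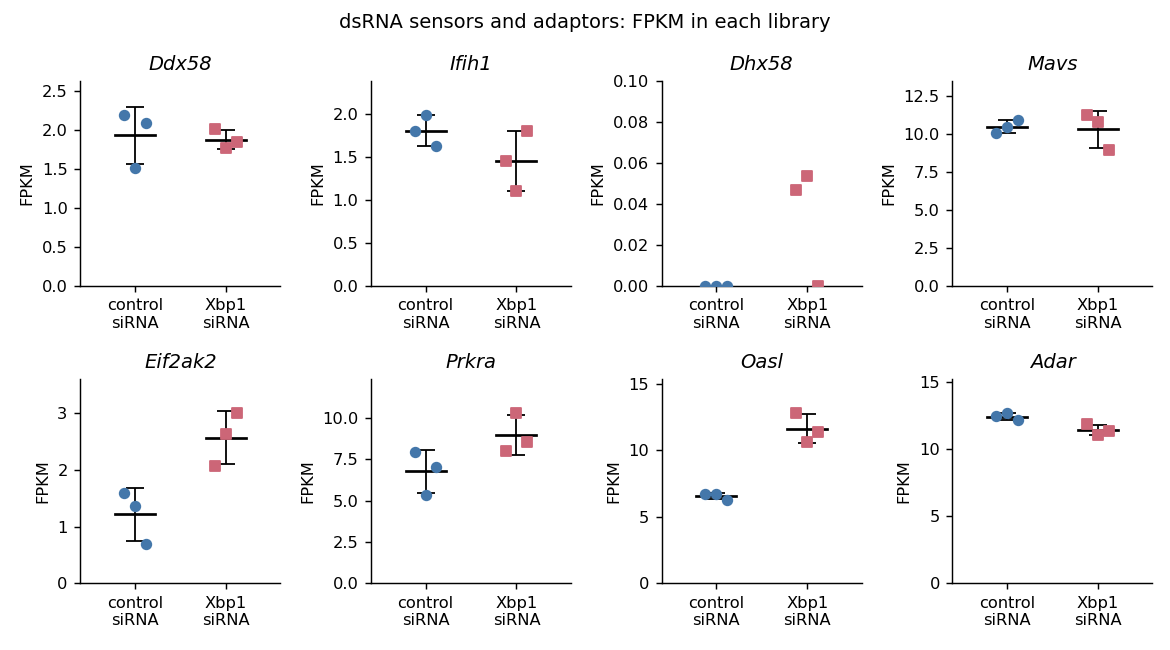
FPKM of the 8 genes in each library, with control siRNA as circles and *Xbp1* siRNA as squares, the mean as a bar and the SD as whiskers (n = 3), on a linear axis from 0 that differs between genes. *Eif2ak2*, *Oasl* and, by a small margin, *Prkra* have all 3 *Xbp1* siRNA libraries above the control libraries, and *Adar* has all 3 below. *Dhx58*, for which no mean is drawn, is at 0 in 4 of 6 libraries.

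The silenced gene was lower in the libraries labelled with its siRNA. *Xbp1* had 26.0, 26.2 and 28.4 FPKM with control siRNA and 2.18, 2.11 and 1.39 FPKM with *Xbp1* siRNA. FPKM sums were between 646651 and 666267 in the control libraries and between 593487 and 600986 in the *Xbp1* siRNA libraries, and scaling the libraries by median ratios left the median log2 fold change of all genes at 0.0036. Markers of other cell types were examined as a check of the label. The immune markers summed to 5.18 to 6.21 FPKM with control siRNA and 7.05 to 8.86 with *Xbp1* siRNA, nearly all from *Cd68*, while *Ptprc* and *Cd3e*, 2 of the 5 matched, were at 0 in every library. The 3 epithelial markers matched summed to 1.83 to 2.16 FPKM and 4.59 to 5.79 FPKM, mostly from *Epcam*, with *Krt18* at 0. The part of these levels in the results below was not tested. The labels name ovary as the tissue. Of the granulosa or theca cell markers, 3 of 5 were matched, with sums of 3.50 to 4.49 FPKM and 3.54 to 3.63 FPKM, mostly from *Amhr2*; *Star* was above 0 in every library and *Fshr* at 0. The 3 oocyte markers summed to 1.99 to 2.38 FPKM and 1.45 to 2.19 FPKM, with *Ddx4* and *Gdf9* above 0 in every library and *Zp3* at 0. The 5 mesenchymal markers summed to 405 to 429 FPKM and 337 to 364 FPKM, mostly from *Vim* (mean 377 and 304 FPKM), while *Fn1* was higher with *Xbp1* siRNA without overlap (mean 13.1 and 23.3 FPKM) and *Col1a1* and *Thy1* were at 0.

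In cells with control siRNA, the adaptor and the editing enzyme stood above the helicases. *Adar* had the highest level, between 12.2 and 12.7 FPKM, and *Mavs* was next, between 10.0 and 10.9 FPKM, with no overlap between these ranges. *Oasl* and *Prkra* followed, with overlapping ranges of 6.27 to 6.72 FPKM and 5.36 to 7.97 FPKM. *Ddx58*, *Ifih1* and *Eif2ak2* lay lower, between 0.696 and 2.19 FPKM over these 3 genes. *Ddx58* overlapped with both others, while *Eif2ak2*, at 0.696 to 1.59 FPKM, lay just below *Ifih1*, at 1.63 to 1.99 FPKM, and was the lowest of the 3 in every control library. Among the 17599 entries above 0 in at least 1 library, the mean level of *Adar* over all libraries was at the 61.0th percentile and that of *Ddx58* at the 38.5th. In cells with *Xbp1* siRNA the upper order closed up, as *Oasl*, between 10.6 and 12.8 FPKM, overlapped with *Mavs* (8.90 to 11.2 FPKM), which in turn overlapped with *Adar* (11.1 to 11.9 FPKM). *Eif2ak2* then lay above both helicases without overlap, from 2.07 to 3.00 FPKM against 1.77 to 2.01 FPKM for *Ddx58* and 1.10 to 1.81 FPKM for *Ifih1*. The order of *Eif2ak2* and *Ifih1* was thus opposite in the conditions, but the margin with control siRNA was narrow. There the nearest values, 1.591 and 1.630 FPKM, lay closer than the step of *Eif2ak2* taken below as 1 read. That step was 0.0758 FPKM in control replicate 1. The nearest values of *Eif2ak2* and *Ddx58* with *Xbp1* siRNA, 2.070 and 2.007 FPKM, were closer than that step too.

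The RIG-I-like helicases were weakly expressed and did not pass the test. *Ddx58*, which encodes RIG-I, had 2.19, 1.51 and 2.09 FPKM with control siRNA and 2.01, 1.77 and 1.84 FPKM with *Xbp1* siRNA. The control libraries enclosed all 3 values with *Xbp1* siRNA. Its log2 fold change was −0.02 (95% interval −0.44 to 0.40, adjusted p = 0.936, limma), an interval that leaves room for a change in either direction of less than the fold threshold. *Ifih1*, which encodes MDA5, had 1.81, 1.99 and 1.63 FPKM with control siRNA and 1.46, 1.10 and 1.81 FPKM with *Xbp1* siRNA. *Xbp1* siRNA replicate 3 lay within the control range and the other two below it. The log2 fold change of *Ifih1* was −0.32 (95% interval −0.80 to 0.17, adjusted p = 0.265, limma), and it stayed below 0, between −0.48 and −0.15, under the 15 alternative settings and left-out libraries. The sign of *Ddx58* turned when single libraries were left out.

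*Dhx58*, which encodes LGP2, was listed at 0 in all 3 control libraries and in *Xbp1* siRNA replicate 3. It had 0.0468 and 0.0538 FPKM in *Xbp1* siRNA replicates 1 and 2. The gene was not tested, and no fold is given against a group listed at 0. When the minimum level was dropped, *Dhx58* had an adjusted p of 0.288 (limma) over 17599 entries. The reads behind these values are unknown.

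*Mavs*, the adaptor to which RIG-I and MDA5 signal, was close to level between the conditions. It had 10.0, 10.4 and 10.9 FPKM with control siRNA and 11.2, 10.7 and 8.90 FPKM with *Xbp1* siRNA. *Xbp1* siRNA replicate 3 was the lowest of the 6 libraries and replicate 1 the highest, so the groups overlapped. For *Mavs* the log2 fold change was −0.03 (95% interval −0.26 to 0.20, adjusted p = 0.852, limma). The interval is narrower than that of either helicase, and its sign was not fixed, turning to 0.07 without *Xbp1* siRNA replicate 3.

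*Eif2ak2*, which encodes PKR, had the largest fold change of the members. It had 1.59, 1.37 and 0.696 FPKM with control siRNA and 2.07, 2.62 and 3.00 FPKM with *Xbp1* siRNA. All 3 libraries with *Xbp1* siRNA lay above all 3 with control siRNA, and control replicate 3 stood below the other control libraries. The mean was 1.22 ± 0.466 FPKM (SD, n = 3) and 2.56 ± 0.468 FPKM (SD, n = 3), respectively. The log2 fold change was 1.07 (standard error 0.30, 95% interval 0.36 to 1.78, adjusted p = 0.0252, limma). Permuting 3 libraries against 3 exactly, on both sides, cannot give a p below 0.10 for any gene.

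The *Eif2ak2* values could be turned back into reads. The files give no read totals, but in all 6 libraries the FPKM of this gene were whole multiples of a common step once the libraries were put on 1 scale, with the largest deviation 6.77e-05 of a read against a tolerance of 0.001. Taking the step as 1 read, which gives the smallest whole numbers possible, control replicates 1, 2 and 3 held 21, 17 and 9 reads. *Xbp1* siRNA replicates 1, 2 and 3 held 28, 34 and 46 reads. The sums were 47 and 108 reads. The exact Poisson 95% interval, which covers counting error only, was 4.12 to 17.1 reads for control replicate 3, the lowest library, and 13.0 to 32.1 reads for control replicate 1, the highest of its group. These intervals overlap. The interval of *Xbp1* siRNA replicate 1, 18.6 to 40.5 reads, overlaps with that of control replicate 1 too, and that of replicate 3 was 33.7 to 61.4 reads. The scale of *Xbp1* siRNA replicate 3 was also the highest, at 116% of control replicate 1, while the other libraries lay at 102% or below, and the read numbers are not corrected for this. Among the 8 members, *Eif2ak2* was the single one with such a step.

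**Figure D2:**
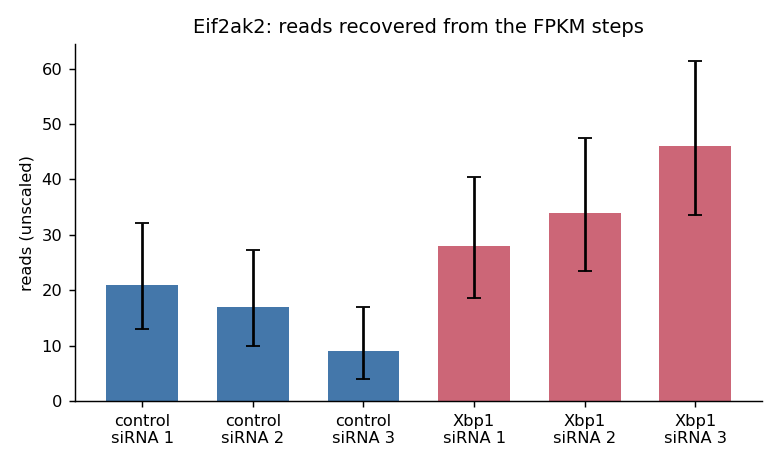
Reads of *Eif2ak2* in each library as recovered from the FPKM steps, not corrected for depth, with exact Poisson 95% intervals as whiskers that cover counting error only. The control libraries hold 9 to 21 reads and the *Xbp1* siRNA libraries 28 to 46.

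The call of *Eif2ak2* depended on single libraries and on the model. Without *Xbp1* siRNA replicate 2 the adjusted p was 0.0701, and without replicate 3 it was 0.0852 with a log2 fold change of 0.95 (limma). Without control replicate 3 the log2 fold change was 0.74 with an adjusted p of 0.0328 (limma). With the replicate block the adjusted p was 0.0520, and without trend it was 0.0532 (limma). A pseudocount of 1 gave a log2 fold change of 0.70, and quantile normalization gave 0.96. The direction was the same in all 15 alternatives, the adjusted p was under 0.05 in 11 of them (limma), and *Eif2ak2* was called in 8.

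*Prkra*, which encodes the PKR activator PACT, was higher in mean but did not pass the adjusted threshold. It had 7.97, 5.36 and 7.02 FPKM with control siRNA and 7.999, 10.3 and 8.56 FPKM with *Xbp1* siRNA. The groups did not overlap, but control replicate 1 and *Xbp1* siRNA replicate 1 were nearly equal. The log2 fold change was 0.41 (standard error 0.16, 95% interval 0.03 to 0.78, unadjusted p = 0.0372, adjusted p = 0.0812, limma). Without control replicate 1 it was 0.53 with an adjusted p of 0.0413 (limma), and without any other single library the adjusted p was between 0.0860 and 0.222. The coefficient of variation was 19.5% in the control libraries, against 3.87% for *Oasl*.

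*Oasl*, of the oligoadenylate synthetase family, had the smallest p-value of the members. It had 6.70, 6.72 and 6.27 FPKM with control siRNA and 12.8, 10.6 and 11.4 FPKM with *Xbp1* siRNA. The lowest library with *Xbp1* siRNA was well above the highest control library, and the gap between them exceeded the range within either group. The mean went from 6.56 ± 0.254 FPKM to 11.6 ± 1.10 FPKM (SD, n = 3 each). On the log2 scale the difference was 0.81 (standard error 0.088, 95% interval 0.61 to 1.02, adjusted p = 3.18e-04, limma), which is under the fold threshold, so the gene was not called. By p-value it ranked 1168 of the 14361 genes tested. Across the 15 alternatives the log2 fold change lay between 0.74 and 0.87 and the adjusted p was under 0.05 in each, with 0.00224 the largest (limma). Of the members that passed, *Eif2ak2* thus had the larger fold change and *Oasl* the smaller error.

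*Adar*, which encodes the editing enzyme ADAR1, was slightly lower with *Xbp1* siRNA in every library and did not pass the test. It had 12.5, 12.7 and 12.2 FPKM with control siRNA and 11.9, 11.1 and 11.4 FPKM with *Xbp1* siRNA. The groups did not overlap, and the lowest control library exceeded the highest with *Xbp1* siRNA by little. The log2 fold change was −0.12 (95% interval −0.26 to 0.02, adjusted p = 0.154, limma). It lay between −0.15 and −0.10 across the 15 alternatives, both other scalings included. Counting all members tested, the groups did not overlap in 4, with *Xbp1* siRNA higher in 3 of them. Among all genes tested the groups did not overlap in 51.8%, with *Xbp1* siRNA higher in 26.1% and lower in 25.8%, so separation of 3 libraries from 3 was common in these data.

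**Figure D3:**
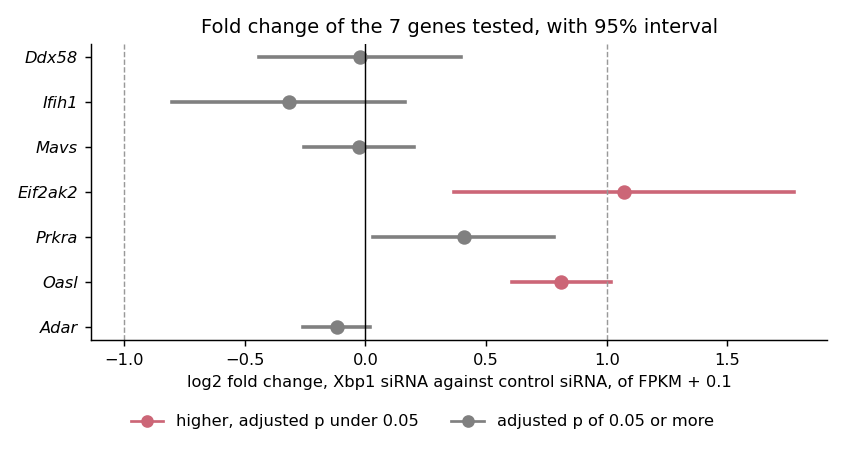
Log2 fold change of FPKM + 0.1, *Xbp1* siRNA against control siRNA, for the 7 members tested (points) with 95% intervals from limma (lines) and the fold threshold of 1 in either direction (dashed). *Oasl* at 0.81 has a narrow interval and *Eif2ak2* at 1.07 a wide one, and the intervals of *Ddx58*, *Ifih1*, *Mavs* and *Adar* include 0.

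**Figure D4:**
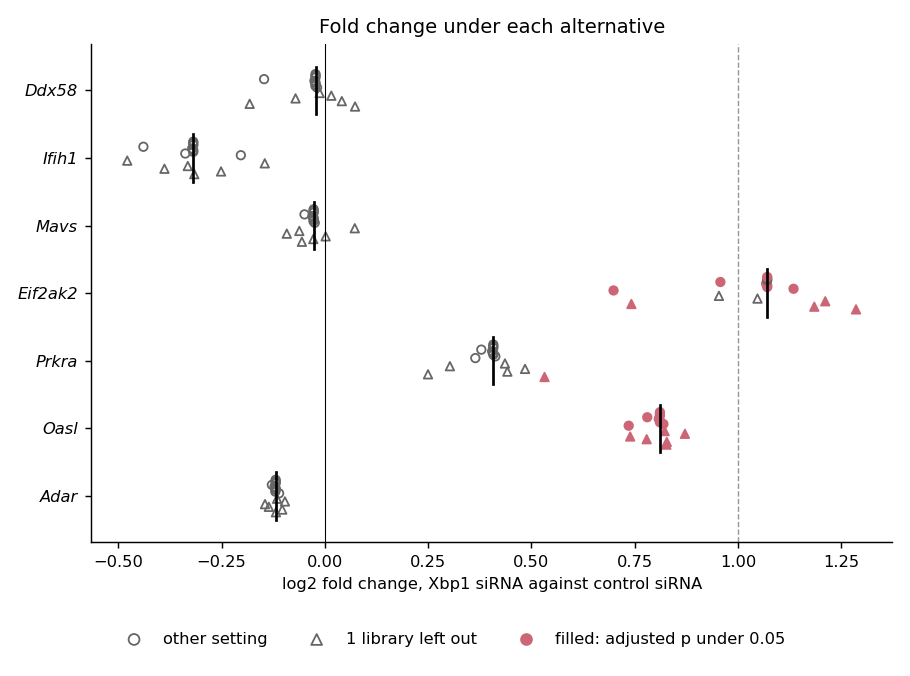
Log2 fold change of each member tested under the 15 alternatives, as circles for other settings and triangles for fits without 1 library, filled where the adjusted p was under 0.05 (limma), with the reported value as a black line and the fold threshold dashed. *Oasl* is filled throughout, *Eif2ak2* in 11 of 15 and *Prkra* in 1.

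The other genes of dsRNA sensing were taken from 7 lists that hold 106 genes, of which 95 were found and 82 tested. Of these, 24 were higher and 28 lower at an adjusted p under 0.05 (limma), against 40.4% of all genes tested in either direction, and 2 were called higher and 1 lower, against 2.69% and 2.5% of all genes. The counts per list below are descriptions, to be read against the 20.2% of all genes tested that were higher and the 20.2% that were lower. Of 19 sensing adaptors and kinases tested, a list that also holds the receptor gene *Tlr3*, 8 were higher and 2 lower. The median of the list was 0.22 on the log2 scale, against 0.01 for all genes. Among them the adaptor *Tradd* had 0.76 and *Fadd* 0.65, and the interferon regulatory factor *Irf7* had 0.83 (adjusted p = 0.00478, limma). *Irf3*, a factor activated downstream of MAVS, had −0.17 (adjusted p = 0.0463, limma), an adjusted p that lay between 0.0251 and 0.130 across the alternatives, and *Ikbkg* had −0.26. The kinase gene *Ikbke* had 0.17 (adjusted p = 0.433, limma), and *Tlr3*, the endosomal dsRNA receptor, had 0.310 ± 0.0871 FPKM and 0.604 ± 0.0222 FPKM (SD, n = 3). The log2 fold change of *Tlr3* was 0.80 (95% interval 0.14 to 1.46, adjusted p = 0.0562, limma), so it narrowly did not pass. Its adjusted p was under 0.05 in 2 of 14 alternatives (limma).

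Of 12 regulators of the RIG-I-like receptors tested, 4 were higher and 6 lower. The ubiquitin ligase genes *Trim25* and *Rnf135*, whose products activate RIG-I, had log2 fold changes of 0.46 and 0.42 (adjusted p = 0.0177 and 0.0254, limma). *Pcbp2*, whose product directs MAVS to degradation, had 0.38 (adjusted p = 9.34e-05, limma), with an adjusted p under 0.05 in 15 of 15 alternatives. *Cyld*, a deubiquitinase that restrains RIG-I, had −0.43 (adjusted p = 0.0221, limma; under 0.05 in 10 of 15). *Zcchc3*, a co-receptor for RIG-I and MDA5, had −0.68, and *Rnf125*, a ligase that marks RIG-I for degradation, had −0.74. The adjusted p of *Rnf125* was under 0.05 in 7 of 14 alternatives, with log2 fold changes from −0.84 to −0.36, and that of *Rnf135* in 10 of 15 (limma). *Ddx58* itself, as given above, had −0.02. Of the other dsRNA-binding proteins and helicases, 4 were higher and 7 lower of 16 tested, among them *Strbp* with 0.46, *Zc3hav1* with −0.45, *Ddx3x* with −0.39 and *Ddx1* with −0.38. *Stau2* was called higher at 1.07, from 0.114 ± 0.0465 FPKM to 0.346 ± 0.0509 FPKM (SD, n = 3), but it was called in 5 of 14 alternatives, and not without control replicate 2 or 3 or any of the *Xbp1* siRNA libraries.

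Beside *Oasl*, *Pde12*, which degrades oligoadenylates, was lower with a log2 fold change of −0.62, and *Oas2* and *Oas3* were listed at 0 in every library. Beside *Eif2ak2*, 12 genes of the eIF2 kinase arm were tested, of which 1 was higher and 5 lower. The one higher was *Eif2ak3*, the kinase PERK of the endoplasmic reticulum, at 0.51 on the log2 scale (adjusted p = 0.00512, limma), while the kinase genes *Eif2ak1* with −0.05 and *Eif2ak4* with 0.15 did not pass. *Ppp1r15b*, a subunit that directs the removal of phosphate from eIF2 alpha, was called lower at −1.06, and *Ddit3* had −0.55 and *Nck1* −0.50.

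The small RNA machinery, through which siRNA acts, had 2 genes higher and 5 lower of 10 tested. *Dicer1* had −0.45 (adjusted p = 0.00115, limma), *Tnrc6b* −0.85 and *Tsn* −0.35. *Tarbp2*, a partner of Dicer that also binds PKR, had −0.21 (adjusted p = 0.0300, limma), *Tnrc6a* 0.27 and *Drosha* 0.20; the adjusted p of *Tarbp2* was under 0.05 in 9 of 15 alternatives (limma). *Ago2*, the slicer of the siRNA pathway, had 0.05 (adjusted p = 0.593, limma). Of 10 genes of interferon output tested, 4 were higher and 2 lower. *Ifnb1*, the interferon gene that the sensors induce, was listed at 0 in every library, as were *Rsad2* and *Usp18*. *Mx1* had a log2 fold change of 0.40, *Bst2* 0.37, *Ifi35* −0.74 and *Isg15* −0.66. The adjusted p of *Isg15* was under 0.05 in 7 of 15 alternatives, with log2 fold changes from −0.91 to −0.46, and that of *Ifi35* in 11 of 15 (limma). In reads, recovered as for *Eif2ak2*, *Isg15* had 13, 19 and 24 with control siRNA and 12, 11 and 14 with *Xbp1* siRNA. *Cxcl10*, a chemokine gene that interferon induces, was called higher. Its values in reads, recovered as for *Eif2ak2*, were 1, 2 and 1 with control siRNA and 31, 12 and 15 with *Xbp1* siRNA, and the adjusted p was 9.94e-04 (limma).

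**Figure D5:**
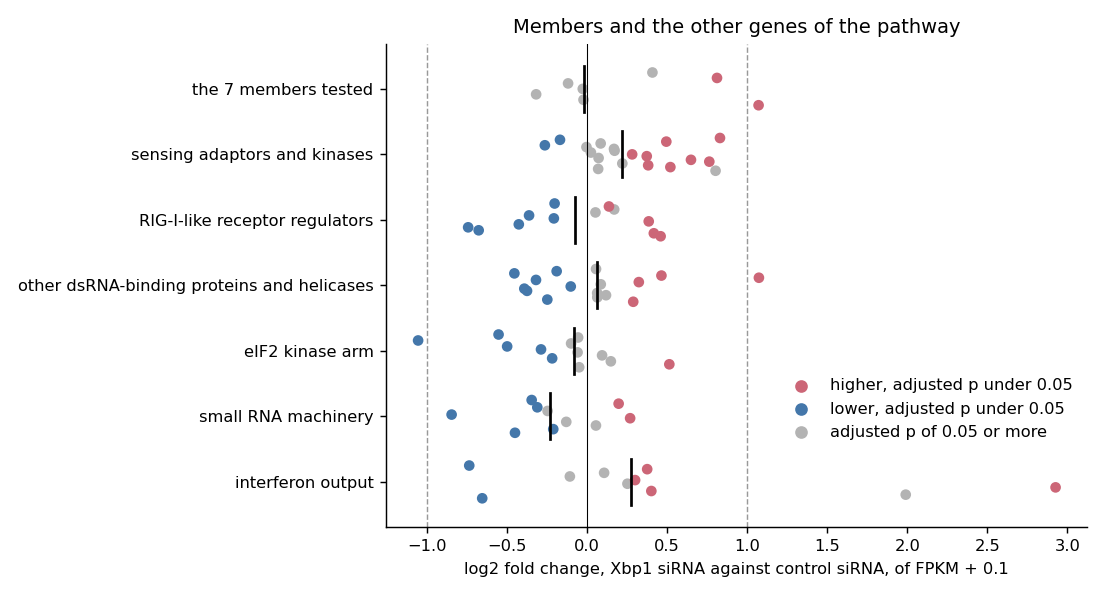
Log2 fold change of FPKM + 0.1, *Xbp1* siRNA against control siRNA, of the members tested and of the other pathway genes by list, for lists with more than 3 genes tested, coloured by direction where the adjusted p was under 0.05 (limma), with the median of each row as a black line and the fold threshold dashed. The median is −0.02 for the members, 0.22 for the sensing adaptors and kinases, −0.23 for the small RNA machinery and 0.28 for interferon output.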

How the data were processed

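RNA-Seq of 6 libraries was analysed, 3 per condition, made with a stranded mRNA kit. The authors deposited FPKM, 1 library per file. The submitters' processing notes name HISAT2 2.1.0 and Cuffdiff 2.2.1; the genome build, the annotation and the use of strand in counting are not given in the sources used here, so no coordinates are printed and reads shared with overlapping or related genes cannot be told apart. FPKM are not counts, so limma 3.58.1 (R 4.3.3) took the place of the count model in the study's methods: log2(FPKM + 0.1), mean FPKM of at least 0.1, lmFit and eBayes with trend, Benjamini-Hochberg adjustment over all genes tested. Read depth is not stated in the files; low FPKM of 1 member were expressed in reads. The scripts were tested on simulated data. Read recovery and figures were done in Python 3.11.15 (scipy 1.17.1).

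The members, the pathway lists and the tests were chosen with earlier results of these data known. Named pathway genes are up to 3 per direction and list with the largest fold change at an adjusted p under 0.05, plus *Tlr3*, *Irf3*, *Irf7*, *Ikbke*, *Ifnb1*, *Dicer1*, *Ago2*, *Tarbp2*, *Eif2ak1*, *Eif2ak3* and *Eif2ak4*, and genes at 0; some genes that the rule takes are not reported here. Alternatives were other pseudocounts, filters and scalings, no trend, a replicate block, summed rows, a lower fold threshold and leaving out each library. A RefSeq table (assembly CriGri-PICRH-1.0) held 24037 of the 27311 symbols, the 8 members among them. Sequences of the members were not used here.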

Additional observations from a re-analysis of the deposited data

How the results depend on the processing

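Of 105 recomputed values for single members, 95 kept their direction and their side of an adjusted p of 0.05 (limma), 4 of *Eif2ak2* lost it, 1 of *Prkra* gained it and 5 turned sign. The sign turned for *Ddx58*, to 0.073 and 0.04 without control siRNA replicates 1 and 3 and 0.02 without *Xbp1* siRNA replicate 2 (from −0.18 to 0.073 over all left-out libraries), and for *Mavs*, to 0.0017 without control siRNA replicate 3 and 0.072 without *Xbp1* siRNA replicate 3 (from −0.092 to 0.072); the cause was not tested. The number of members called higher was 1, and 0 with a pseudocount of 1, with quantile normalization, without trend and with the replicate block. Without trend and with the block, 1 member was higher at an adjusted p under 0.05, namely *Oasl* (0.00205 and 0.00167, limma). *Eif2ak2* had 0.0532 and 0.0520 in these fits (limma). The replicate numbers were not taken as pairs, since libraries with the same number did not deviate together (correlations of −0.029, −0.027 and −0.012 across genes). Leaving out 1 library gave 1 to 3 members higher at an adjusted p under 0.05, 0 to 1 called higher, a median from −0.071 to 0.073, 1 to 3 pathway genes called higher and 0 to 1 called lower, the last being *Ppp1r15b*, at −0.99 without *Xbp1* siRNA replicate 2. Without a filter the median was 0.18, since *Dhx58* entered. Of the pathway genes, 1 was called higher with a pseudocount of 1 or 0.01, quantile normalization or the replicate block, and 0 when a mean FPKM of 1 was required, since *Stau2* and *Cxcl10* are below it. With a log2 fold threshold of 0.58, 2 members and 6 pathway genes were called higher and 7 pathway genes lower. The read numbers of *Eif2ak2* limit its precision; for the other members the depth behind each value is unknown.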
